A study of Homo sapiens with 16 samples.

Results

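Fatty acid uptake and activation were followed through 10 genes in A498 cells, an established human clear cell renal cell carcinoma line. The genes were listed by role as fatty acid transporters (CD36, SLC27A1, SLC27A3 and SLC27A4), fatty acid binding proteins (FABP3, FABP5 and FABP6) and long-chain acyl-CoA synthetases (ACSL1, ACSL4 and ACSL5), and were taken from the 22411 genes that could be tested. Each of the 10 had exactly 1 probe set with a single gene symbol, under its current symbol. All cells carried 2 lentiviral, drug-selected vectors that express short hairpin RNAs against DGAT1 and DGAT2 from a doxycycline-inducible promoter, and all were grown in low serum. The hairpin targets encode the acyltransferases that make triglycerides. There were 4 groups of 4 arrays: doxycycline with hypoxia (0.5% O2), doxycycline with normoxia, vehicle with hypoxia, and vehicle with normoxia, where doxycycline or vehicle was given for 5 days and the oxygen level was held for 2 days. Each array measured a whole culture, so that fewer cells expressing a gene and less RNA per cell cannot be told apart. Doxycycline was not given to cells without the hairpins on the arrays analysed, so that drug and knockdown cannot be told apart. Replicates are labelled as biological without a word on how cultures were separated, so the p-values measure only the spread between these arrays, which may be partly technical.

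A fatty acid from outside the cell crosses the plasma membrane with the help of CD36, a scavenger receptor, and of the SLC27A family, whose proteins couple transport to acyl-CoA synthesis. Inside the cell it is carried by small binding proteins of the FABP family, and acyl-CoA synthetases attach coenzyme A to it, which commits it to triglyceride synthesis, membrane lipids or oxidation. Clear cell renal cell carcinoma is known for storing fatty acids as triglyceride in lipid droplets, and hypoxic cells draw more on unsaturated fatty acids from outside because fatty acid desaturation needs oxygen.

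All values are deposited log2 levels, and differences are on that scale. Calls were made with limma at a Benjamini-Hochberg adjusted p under 0.05 over all 22411 genes, and exact permutation tests of 4 against 4 arrays were two-sided, with a smallest possible p of 0.0286. The hairpin targets were lower with doxycycline at both oxygen levels, and no doxycycline array reached a vehicle array in either gene. DGAT1 averaged 5.11 ± 0.06 with doxycycline and 6.82 ± 0.14 with vehicle in normoxia (SD, n = 4 each; log2 difference -1.71 ± 0.09 SE, limma adjusted p = 3.75e-08). In hypoxia DGAT1 averaged 5.18 ± 0.07 with doxycycline and 6.50 ± 0.20 with vehicle (SD, n = 4 each; limma adjusted p = 7.42e-07). DGAT2 averaged 5.21 ± 0.15 with doxycycline and 7.04 ± 0.12 with vehicle in normoxia (SD, n = 4 each; log2 difference -1.83 ± 0.10 SE, limma adjusted p = 3.96e-08), and 5.12 ± 0.07 with doxycycline and 6.52 ± 0.20 with vehicle in hypoxia (SD, n = 4 each; limma adjusted p = 9.83e-07). Renal markers were present, with 7 of 9 above the median level of all genes (4.89), among them PAX8, a kidney lineage factor, at 11.33 and VIM at 15.20, while KRT19 and EPCAM were below it. None of 4 adipocyte markers, none of 6 endothelial markers and 1 of 7 leukocyte markers was above that level, the exception being CD68, a lysosomal protein, at 12.21. The linear levels of the leukocyte list, nearly all of it CD68, summed to between 3080 and 5300 with doxycycline in hypoxia, 4380 and 5050 with doxycycline in normoxia, 3980 and 5700 with vehicle in hypoxia, and 5530 and 6650 with vehicle in normoxia. Those of the renal list summed to between 77700 and 83000 with doxycycline in hypoxia, 83000 and 87100 with doxycycline in normoxia, 80900 and 98000 with vehicle in hypoxia, and 96700 and 104000 with vehicle in normoxia. With doxycycline in normoxia 1 renal marker was called higher (CDH6, a kidney cadherin, 1.20, limma adjusted p = 0.00143) and 2 lower (the keratins KRT8, -0.50, limma adjusted p = 0.0297, and KRT18, -0.68, limma adjusted p = 0.000555), and 1 endothelial marker was called higher (TEK, 0.18, limma adjusted p = 0.0308). In each of the other 3 single-factor comparisons 1 renal marker was called lower. With doxycycline in hypoxia 1 endothelial marker was called higher. Hypoxia lowered 1 leukocyte marker with either treatment. The part of the markers in the results was not tested.

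In normoxia, doxycycline raised 3 of the 10 genes and lowered none (FABP5, ACSL1 and ACSL5), where 9.08% of all genes were called, 4.43% higher and 4.65% lower. The median difference of the 10 genes was 0.20, against -0.02 over all genes. In hypoxia, doxycycline changed 0 of the 10, where 4.66% of all genes were called (2.67% higher and 1.99% lower). An unadjusted limma p under 0.05 was found for 3 of the 10, and for 3844 of all 22411 genes. The median difference of the 10 genes was 0.13, against 0.00 over all genes. The methods' t-test on the same values called 0 of the 10, where it called only 198 of all 22411 genes. Hypoxia against normoxia lowered ACSL5 alone with doxycycline (1 of 10, where 3.98% of all genes were called, 1.02% higher and 2.97% lower), and it lowered ACSL5 and raised ACSL1 with vehicle (2 of 10, where 6.91% of all genes were called, 2.26% higher and 4.65% lower). The median differences for hypoxia lay close to those of all genes, at -0.02 against -0.01 with doxycycline and at -0.06 against -0.05 with vehicle. For doxycycline against vehicle, the arrays did not overlap for 4 of the 10 genes in normoxia, against 19.9% of all genes, and for 1 of the 10 in hypoxia, against 9.01% of all genes. For hypoxia against normoxia they did not overlap for 3 of the 10 with doxycycline, against 12.9% of all genes, and for 4 of the 10 with vehicle, against 13.8% of all genes. The calls fell on the synthetases and 1 binding protein, and no transporter gene was called in any comparison.

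**Figure D1:**
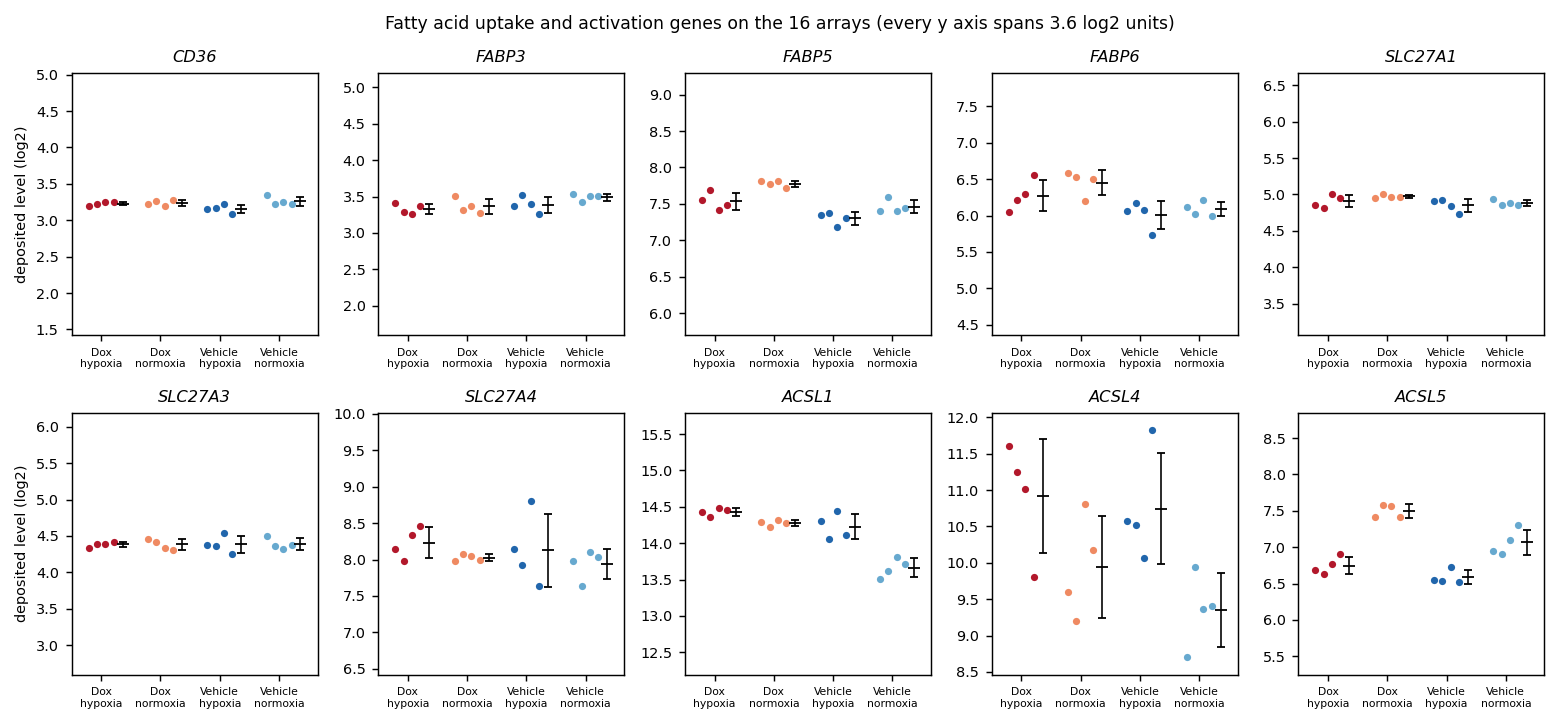
Deposited log2 level (y axis) of each of the 10 genes on every array (points, in the order of replicates 1 to 4) in the 4 groups (x axis), with the group mean and SD as black bars; every panel spans 3.6 log2 units. ACSL1 was lowest on the 4 arrays of vehicle normoxia, ACSL5 was highest with doxycycline in normoxia, and ACSL4 spread over 3.13 log2 units.

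**Figure D2:**
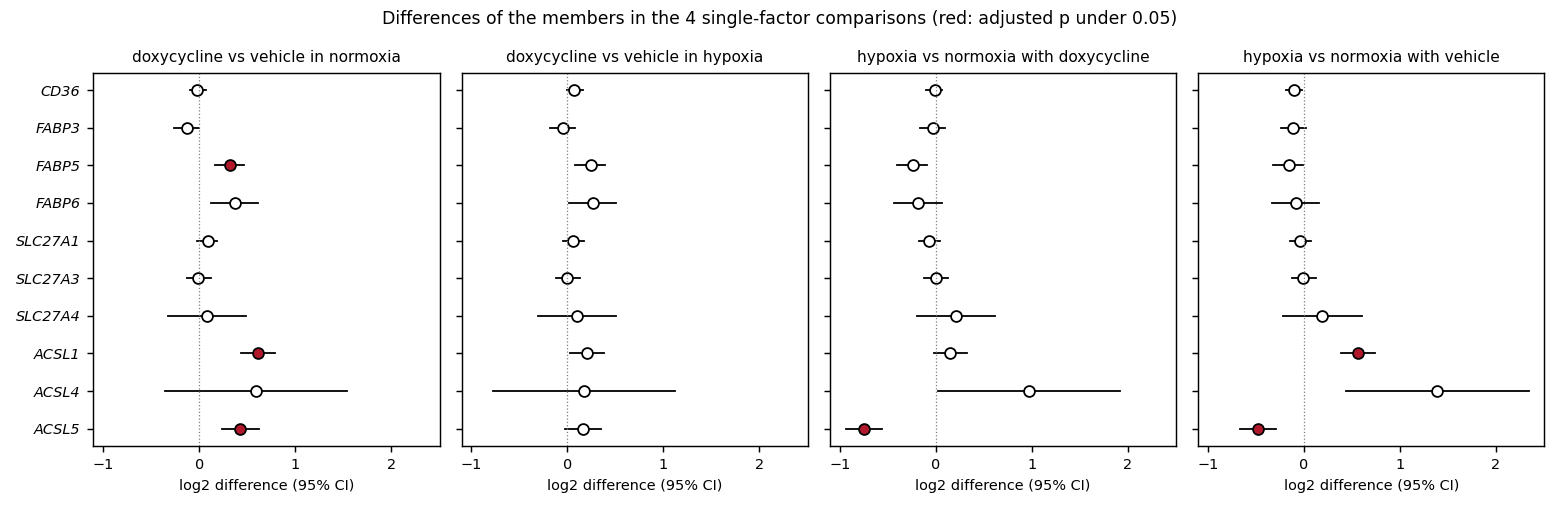
Log2 difference (x axis) with its 95% confidence interval (lines) for each gene (y axis) in the 4 comparisons of a single factor, red where the limma adjusted p was under 0.05. The 6 red points belong to ACSL1, ACSL5 and FABP5, and the wide intervals belong to ACSL4.

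The differences of the 4 transporter genes were at most 0.21 in the single-factor comparisons, and none passed the test. CD36 lay between 3.09 and 3.35 on the 16 arrays, below the median level of all genes on each, and the files give no detection call. Its largest difference was -0.10 ± 0.04 (SE, hypoxia against normoxia with vehicle, limma adjusted p = 0.135), and with doxycycline against vehicle in normoxia the 95% interval ran from -0.10 to 0.07. SLC27A3, which encodes a synthetase of the transporter family, was also dim, at 4.25 to 4.54, and its differences lay between -0.01 and 0.00 in the 4 single-factor comparisons.

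SLC27A1 encodes the fatty acid transporter FATP1. With doxycycline in normoxia it measured 4.95, 5.00, 4.97 and 4.97, against 4.94, 4.86, 4.88 and 4.86 with vehicle in normoxia. The arrays of the groups did not overlap, but the difference was only 0.09 ± 0.05 (SE; exact p = 0.0286, limma adjusted p = 0.32).

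SLC27A4 encodes FATP4, the family member known for long-chain fatty acid uptake in the intestine. It measured 8.15, 7.98, 8.34 and 8.46 with doxycycline in hypoxia, 7.98, 8.08, 8.05 and 7.99 with doxycycline in normoxia, 8.15, 7.93, 8.81 and 7.63 with vehicle in hypoxia, and 7.98, 7.64, 8.11 and 8.04 with vehicle in normoxia. Both the highest and the lowest of the 16 arrays were in vehicle hypoxia, so that all groups overlapped it. The 95% interval of the difference between hypoxia and normoxia ran from -0.20 to 0.62 with doxycycline and from -0.22 to 0.60 with vehicle, so that a change within these bounds could not be told from none.

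Among the binding proteins, FABP3, the heart and muscle type, was dim (3.26 to 3.53). With doxycycline in hypoxia it measured 3.41, 3.29, 3.26 and 3.37, against 3.53, 3.42, 3.51 and 3.51 with vehicle in normoxia. These arrays did not overlap, and the difference of -0.16 ± 0.06 (SE) did not pass the threshold (limma adjusted p = 0.0765), but did without vehicle hypoxia replicate 4, whose spread enters the model (limma adjusted p = 0.0492).

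FABP5, the epidermal type, which can hand fatty acids to the nuclear receptor PPARD, was brightest with doxycycline in normoxia. It measured 7.81, 7.77, 7.81 and 7.72 there, against 7.40, 7.60, 7.40 and 7.45 with vehicle in normoxia, and the groups did not overlap. The difference was 0.32 ± 0.07 (SE, 95% interval 0.16 to 0.47, 1.25-fold; limma adjusted p = 0.0128, exact p = 0.0286). In hypoxia it measured 7.55, 7.69, 7.42 and 7.48 with doxycycline, against 7.35, 7.38, 7.18 and 7.30 with vehicle. These arrays did not overlap either, and the difference of 0.24 ± 0.07 (SE) missed the threshold (limma adjusted p = 0.0854, exact p = 0.0286). It passed when dim genes were left out and with array weights. The difference between hypoxia and normoxia was -0.24 ± 0.07 with doxycycline (SE, limma adjusted p = 0.0819) and -0.16 ± 0.07 with vehicle (SE, limma adjusted p = 0.186).

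FABP5 has processed pseudogenes, and the probe sets of 3 of them, examined after the values of FABP5 had been seen, were also higher with doxycycline in normoxia. With doxycycline against vehicle in normoxia the differences were 0.50 ± 0.12 for FABP5P1 (limma adjusted p = 0.0185), 0.52 ± 0.07 for FABP5P3 (limma adjusted p = 0.000172) and 0.48 ± 0.12 for FABP5P7 (limma adjusted p = 0.0231; SE). FABP5P1 and FABP5P7 were far brighter than FABP5. In normoxia FABP5P1 averaged 13.51 with doxycycline and 13.01 with vehicle, and FABP5P7 averaged 13.74 and 13.26. FABP5 itself averaged 7.78 and 7.46. FABP5P3 measured 6.29, 6.17, 6.32 and 6.06 with doxycycline in normoxia, against 5.72, 5.79, 5.68 and 5.57 with vehicle in normoxia. In hypoxia it differed by -0.01 between doxycycline and vehicle (limma adjusted p = 0.981), where FABP5P1 gave 0.36 and FABP5P7 gave 0.42, both short of the threshold. A probe set of a near-identical copy may read the same transcripts, so the source of the FABP5 signal is uncertain and was not tested.

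**Figure D3:**
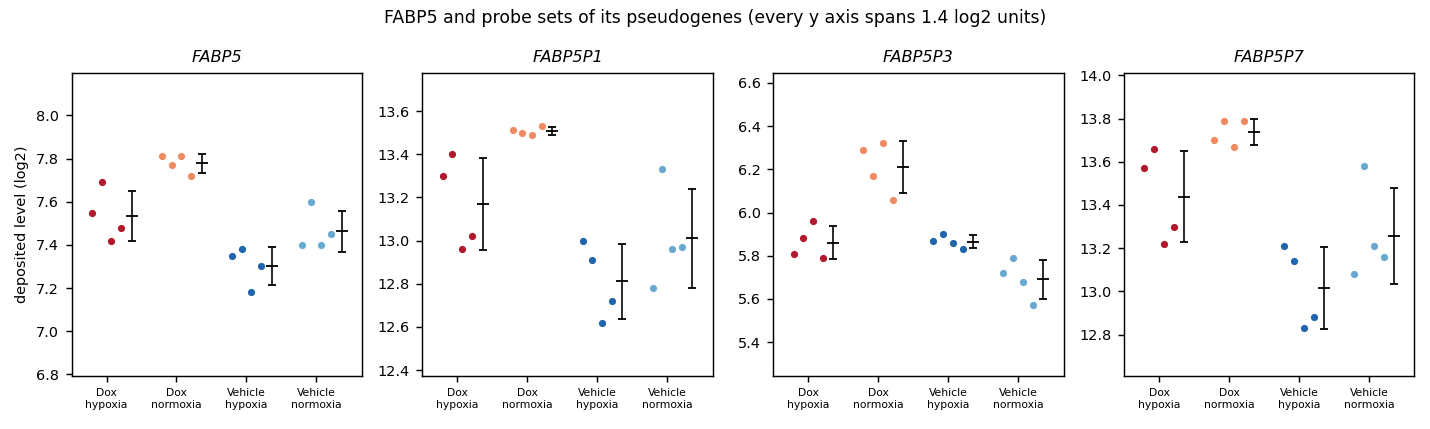
Deposited log2 level (y axis) of FABP5 and of the probe sets of 3 FABP5 pseudogenes on every array (points), by group (x axis), with mean and SD as black bars; every panel spans 1.4 log2 units. In each panel the 4 arrays of doxycycline normoxia had the highest mean, and FABP5P3 averaged 6.21 there, against 5.69 with vehicle in normoxia.

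FABP6 is named for fatty acid binding but is known for carrying bile acids in the ileum. It measured 6.58, 6.53, 6.20 and 6.50 with doxycycline in normoxia, against 6.12, 6.02, 6.21 and 6.0 with vehicle in normoxia, and replicate 3 of the doxycycline group lay below the highest vehicle array. The difference was 0.37 ± 0.12 (SE; limma adjusted p = 0.061, exact p = 0.0571). Without that array it passed the threshold (limma adjusted p = 0.0351), as it did without replicate 4 of doxycycline hypoxia or of vehicle hypoxia (limma adjusted p = 0.0387 and 0.0303). The hypoxia arrays are not in this comparison, and without either the difference stayed at 0.37. Only their spread enters the model.

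ACSL1, a broad long-chain acyl-CoA synthetase of liver, fat and heart, was lowest with vehicle in normoxia and brighter in each of the other groups. It measured 14.43, 14.36, 14.48 and 14.45 with doxycycline in hypoxia and 14.29, 14.22, 14.32 and 14.28 with doxycycline in normoxia. It measured 14.30, 14.06, 14.44 and 14.11 with vehicle in hypoxia and 13.51, 13.62, 13.81 and 13.71 with vehicle in normoxia. No array of vehicle normoxia reached any array of another group, while vehicle hypoxia overlapped both doxycycline groups.

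With doxycycline in normoxia ACSL1 was 0.61 ± 0.08 higher on the log2 scale than with vehicle (SE, 95% interval 0.44 to 0.79, 1.53-fold; limma adjusted p = 0.000299, exact p = 0.0286). In hypoxia the difference between doxycycline and vehicle was 0.20 ± 0.08 (SE, 95% interval 0.03 to 0.38; limma adjusted p = 0.205, exact p = 0.0857). Without vehicle hypoxia replicate 3 it was 0.28 and passed the threshold (limma adjusted p = 0.0456). With vehicle, hypoxia raised ACSL1 by 0.56 ± 0.08 (SE, 1.48-fold; limma adjusted p = 0.00135, exact p = 0.0286). That call was lost when these groups alone entered the model (limma adjusted p = 0.0629) and under the methods' t-test. With doxycycline the difference for hypoxia was 0.15 ± 0.08 (SE, limma adjusted p = 0.404), although these arrays did not overlap.

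The change of the doxycycline difference between oxygen levels was tested as an interaction. For ACSL1 it was -0.41 ± 0.12 (SE, 95% interval -0.66 to -0.16; limma adjusted p = 0.956), and it was the only member with an unadjusted p under 0.05. After adjustment 0 of 22411 genes were called with limma, and 1026 had an unadjusted p under 0.05, so that the smaller doxycycline difference of ACSL1 in hypoxia did not pass the test over all genes. For ACSL5 the interaction was -0.27 ± 0.13 (SE, 95% interval -0.54 to 0.00).

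ACSL5, a synthetase of the mitochondrial outer membrane and the endoplasmic reticulum, moved in opposite directions with the 2 factors. It measured 6.68, 6.63, 6.77 and 6.90 with doxycycline in hypoxia and 7.41, 7.58, 7.57 and 7.42 with doxycycline in normoxia. It measured 6.55, 6.54, 6.73 and 6.52 with vehicle in hypoxia and 6.95, 6.91, 7.10 and 7.30 with vehicle in normoxia. Every hypoxic array lay below every normoxic array, and doxycycline normoxia lay above all other groups.

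Hypoxia lowered ACSL5 in both treatments. With doxycycline the difference was -0.75 ± 0.09 (SE, 95% interval -0.94 to -0.56, 1.68-fold lower; limma adjusted p = 0.000448, exact p = 0.0286), which held when any 1 array was left out. With vehicle it was -0.48 ± 0.09 (SE, 1.39-fold lower; limma adjusted p = 0.00578, exact p = 0.0286), which missed the threshold when the model held these groups alone (limma adjusted p = 0.0733) and under the methods' t-test. Doxycycline raised ACSL5 by 0.43 ± 0.09 in normoxia (SE, 95% interval 0.24 to 0.62, 1.35-fold; limma adjusted p = 0.00769, exact p = 0.0286), and under the methods' t-test the adjusted p was 0.0564. In hypoxia the difference between doxycycline and vehicle was 0.16 ± 0.09 (SE, 95% interval -0.03 to 0.35; limma adjusted p = 0.401).

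Doxycycline in normoxia raised both ACSL1 and ACSL5. Hypoxia with vehicle raised ACSL1 and lowered ACSL5, but both calls were lost with these groups alone in the model. With doxycycline, hypoxia called ACSL5 only. The first promoter listed for ACSL1 and for ACSL5 is shown because these 2 differ widely in base composition. Each sequence covers the 250 bases before a start site in RefSeq (GRCh38.p14), 5′ to 3′, and capitals mark the letters AGGTCA, a hexamer bound by many nuclear receptors. The ACSL1 window (chr4:184825969-184826218, minus strand) is 83.6% G or C with 41 CG pairs, and the ACSL5 window (chr10:112375018-112375267, plus strand) is 50% G or C with 3, where the median over all windows was 58.0%.
ACSL1: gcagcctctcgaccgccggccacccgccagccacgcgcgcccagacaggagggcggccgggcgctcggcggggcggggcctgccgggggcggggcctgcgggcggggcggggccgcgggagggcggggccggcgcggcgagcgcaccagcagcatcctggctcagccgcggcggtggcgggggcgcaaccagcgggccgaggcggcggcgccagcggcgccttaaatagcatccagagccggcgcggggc
ACSL5: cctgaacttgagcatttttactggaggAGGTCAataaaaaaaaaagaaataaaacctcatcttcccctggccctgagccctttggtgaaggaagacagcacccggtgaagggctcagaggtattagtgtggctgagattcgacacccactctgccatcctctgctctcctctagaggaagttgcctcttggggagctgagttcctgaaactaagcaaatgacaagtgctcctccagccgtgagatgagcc
ACSL1 has 5 windows and ACSL5 has 2 in RefSeq, and the first was taken. The other ACSL1 windows are 51.2%, 60.0%, 61.2% and 46.8% G or C, and the other ACSL5 window is 48.8%. The wide difference in composition therefore holds for the first windows only. AGGTCA, searched on both strands, starts 223 bases before the ACSL5 start site and is in 1 of the 19 windows of the 9 members with an entry, against 12.1% of 35116 windows. ACGTG, the core of the hypoxia response element bound by HIF, is in 1 of the 19, that of FABP3, against 18.5% of all windows, and in none of the windows of ACSL1, ACSL4 or ACSL5. A match is a description of letters, and binding was not measured.

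ACSL4, which prefers arachidonic acid and other polyunsaturated fatty acids, varied more within groups than any other member. It measured 11.60, 11.25, 11.01 and 9.80 with doxycycline in hypoxia and 9.60, 9.20, 10.81 and 10.17 with doxycycline in normoxia. It measured 10.57, 10.52, 10.06 and 11.83 with vehicle in hypoxia and 8.70, 9.94, 9.37 and 9.41 with vehicle in normoxia. The arrays of vehicle hypoxia lay above all arrays of vehicle normoxia, while the doxycycline groups overlapped. The SD within groups was 0.70 over the 4 groups, and the other members had 0.05 to 0.29.

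With vehicle the difference of ACSL4 between hypoxia and normoxia was 1.39 ± 0.45 (SE, 95% interval 0.44 to 2.34, limma adjusted p = 0.0749, exact p = 0.0286). It passed without doxycycline hypoxia replicate 4 (limma adjusted p = 0.0456), with dim genes left out (limma adjusted p = 0.047) and with array weights (1.13, limma adjusted p = 0.0102). That replicate is not in this comparison, and only its spread enters the model. Over the alternatives other than leaving out 1 array, the difference with vehicle lay between 0.81 and 1.41. Their highest adjusted p, from limma or the methods' t-test, was 0.427. With doxycycline the difference for hypoxia was 0.97 ± 0.45 (SE, 95% interval 0.02 to 1.92, limma adjusted p = 0.306, exact p = 0.114). That difference passed with array weights (1.22, limma adjusted p = 0.0124). Doxycycline against vehicle gave 0.59 ± 0.45 in normoxia (SE, limma adjusted p = 0.443) and 0.17 ± 0.45 in hypoxia (SE, limma adjusted p = 0.905). The intervals of ACSL4 were the widest among the members.

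The spread of ACSL4 followed the axis along which the arrays of a group differed most over all genes, which held 63.3% of the variance within groups. In 4 of 4 groups the array farthest up this axis had the highest ACSL4 level and the array farthest down had the lowest. Replicate 4 of vehicle hypoxia lay at 45.8 on the axis and 1.08 above its group mean in ACSL4, and replicate 4 of doxycycline hypoxia lay at -31.5 and 1.12 below it. Without both arrays ACSL4 was 1.34 higher in hypoxia with doxycycline and passed the threshold (limma adjusted p = 0.0265), and with vehicle the difference was 1.03 (limma adjusted p = 0.107). The arrays left out were the highest ACSL4 array of vehicle hypoxia and the lowest of doxycycline hypoxia. Leaving them out had to raise the difference with doxycycline and lower that with vehicle, so the threshold passed is no support for a change. The part of the axis in these results was not tested. CD36 had its lowest array at the top of the axis in 4 of 4 groups, within a range of 0.26. In vehicle normoxia this was a tie, with replicates 2 and 4 both at 3.22. In size, its correlation with the axis (r = -0.81) was at percentile 77.7 of all genes, and that of ACSL4 (0.97) at 98.1. FABP6 (r = -0.85) was at percentile 82.7 and had its lowest array at the top of the axis in 3 of 4 groups. SLC27A1, SLC27A3 and SLC27A4 had r of -0.71, -0.76 and -0.71. FABP3, FABP5, ACSL1 and ACSL5 had r of -0.40, 0.41, -0.22 and -0.38.

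**Figure D4:**
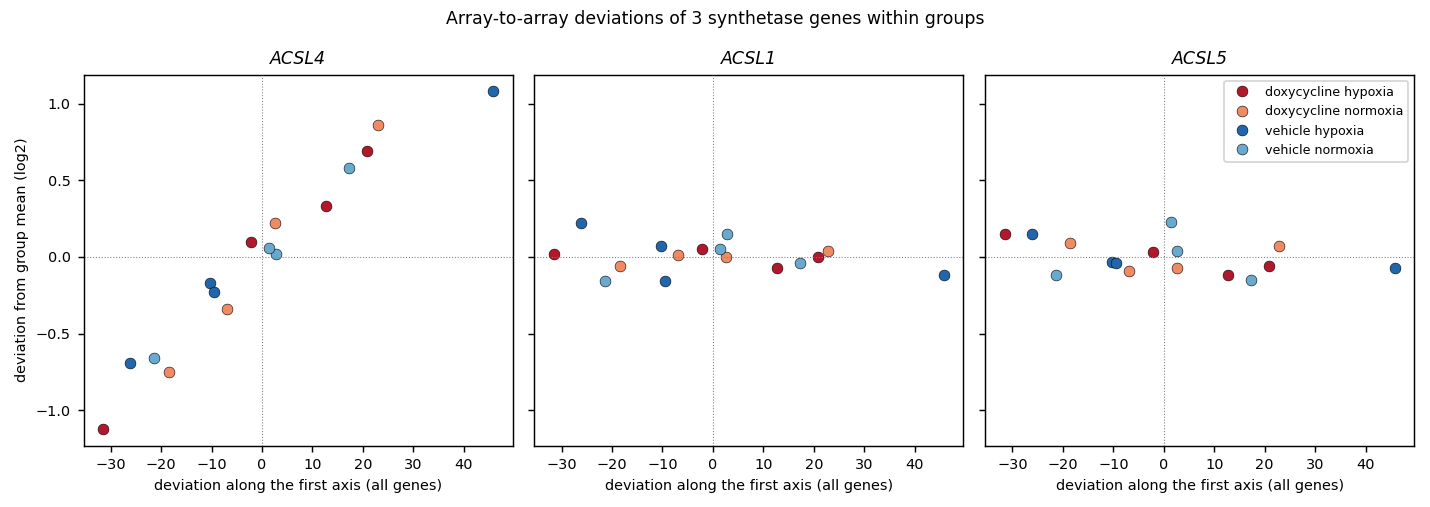
Deviation of each array from its group mean (y axis, log2) against its deviation along the first axis of all genes within groups (x axis, in axis units), for ACSL4, ACSL1 and ACSL5, coloured by group. In the ACSL4 panel the points climb toward the upper right, between -1.12 and 1.08, and in the other panels they stay close to the zero line.

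Doxycycline with hypoxia was also set against vehicle with normoxia, where 21.3% of all genes were called, 7.67% higher and 13.6% lower. ACSL1 was 0.77 ± 0.08 higher (SE, limma adjusted p = 2.32e-05), ACSL4 was 1.56 ± 0.45 higher (SE, limma adjusted p = 0.0221) and ACSL5 was 0.32 ± 0.09 lower (SE; log2 difference -0.32, limma adjusted p = 0.0207). These were 3 of the 10 members, and the arrays of 3 of the 10 did not overlap (ACSL1, ACSL5 and FABP3), against 25.8% of all genes. The ACSL4 arrays of the groups overlapped (exact p = 0.0571), and its call was lost without any one of doxycycline hypoxia replicates 1, 2 and 3 (limma adjusted p = 0.0734, 0.0632 and 0.0533) or without vehicle normoxia replicate 1 (limma adjusted p = 0.0723). The ACSL5 call was lost without doxycycline hypoxia replicate 1 or 2 (limma adjusted p = 0.0597 and 0.0683) or vehicle normoxia replicate 4 (limma adjusted p = 0.0695). This comparison shares arrays with the others, and its values are not independent of them.

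Of 25 measured genes for other fatty acid transporters, binding proteins and acyl-CoA synthetases, doxycycline in normoxia raised 1 and lowered 1. ACSM5, a mitochondrial medium-chain synthetase, averaged 6.44 with doxycycline and 5.45 with vehicle (log2 difference 0.99 ± 0.09 SE, 1.98-fold; limma adjusted p = 7.65e-06). SLC27A5, a liver bile acid-CoA ligase, was lower by 0.19 on the log2 scale (-0.19 ± 0.05 SE, limma adjusted p = 0.041). In hypoxia ACSM5 was the only one of the 25 called with doxycycline (0.47 ± 0.09 SE, limma adjusted p = 0.00441). Hypoxia changed 0 of the 25 with doxycycline, the nearest being FABP4 (-0.24, limma adjusted p = 0.162), and with vehicle it raised ACSM5 (0.45, limma adjusted p = 0.00704) and lowered ACSF3, a mitochondrial malonyl-CoA synthetase (-0.24, limma adjusted p = 0.0361). The list's median was close to that of all genes, at -0.04 against -0.02 for doxycycline in normoxia. Of all genes, doxycycline called 9.08% in normoxia and 4.66% in hypoxia. Hypoxia called 3.98% of all genes with doxycycline and 6.91% with vehicle.

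Of 13 measured genes for lipoprotein receptors, surface lipases and their partners, doxycycline raised 1 and lowered 1 in normoxia and raised 1 in hypoxia, and hypoxia raised 1 with either treatment. LRP1, a receptor for lipoprotein remnants, was higher with doxycycline at both oxygen levels. In normoxia the difference was 0.70 ± 0.11 (SE, limma adjusted p = 0.00128). In hypoxia LRP1 averaged 10.82 with doxycycline and 9.94 with vehicle (0.87, limma adjusted p = 0.000351). In normoxia CAVIN1, a caveolar coat protein, was lower with doxycycline (-0.54 ± 0.15 SE, limma adjusted p = 0.0306). VLDLR, which takes up triglyceride-rich lipoproteins, was higher in hypoxia with doxycycline (0.35, limma adjusted p = 0.0208) and with vehicle (0.31, limma adjusted p = 0.0291). The shares of all genes called were 9.08% and 4.66% for doxycycline in normoxia and hypoxia. They were 3.98% and 6.91% for hypoxia with doxycycline and with vehicle.

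Among 18 acyl-CoA binding proteins and thioesterases, doxycycline in normoxia raised ACOT13, a thioesterase (0.50, limma adjusted p = 0.000803), and DBI, the acyl-CoA binding protein (0.24, limma adjusted p = 0.0334), and changed 0 in hypoxia, where ACOT13 was nearest (0.26, limma adjusted p = 0.0618). Hypoxia lowered ACOT13 with doxycycline (-0.43, limma adjusted p = 0.0052). With vehicle, hypoxia raised DBI (0.23, limma adjusted p = 0.0498) and lowered ACOT7 (-0.48, limma adjusted p = 0.0165) and ACBD4 (-0.17, limma adjusted p = 0.0176). ACOT13 averaged 7.90 with doxycycline in hypoxia, 8.33 with doxycycline in normoxia, 7.63 with vehicle in hypoxia and 7.83 with vehicle in normoxia. Beside these calls, doxycycline called 9.08% of all genes in normoxia and 4.66% in hypoxia. Hypoxia called 3.98% with doxycycline and 6.91% with vehicle.

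Among 12 measured nuclear receptors, coactivators and HIF subunits, doxycycline in normoxia raised 3 and lowered 0: EPAS1, which encodes HIF2α (0.52, limma adjusted p = 0.00742), PPARA, a receptor that turns on fatty acid oxidation genes (0.28, limma adjusted p = 0.00931), and PPARGC1A, its coactivator (0.25, limma adjusted p = 0.00268). In hypoxia doxycycline raised EPAS1 (0.83, limma adjusted p = 0.000386) and lowered RXRA, the partner receptor of the PPAR family (-0.30, limma adjusted p = 0.0378). Hypoxia raised PPARA with doxycycline (0.26, limma adjusted p = 0.0256) and with vehicle (0.38, limma adjusted p = 0.00232). With vehicle it also raised PPARGC1A (0.16, limma adjusted p = 0.0395) and lowered PPARD (-0.31, limma adjusted p = 0.0238). For comparison, doxycycline called 9.08% of all genes in normoxia and 4.66% in hypoxia. Hypoxia called 3.98% of all genes with doxycycline and 6.91% with vehicle. Of the 25 calls of list genes in the single-factor comparisons, 12 held when any 1 array was left out, namely those of ACSM5, LRP1, ACOT13, EPAS1, PPARA and PPARGC1A with doxycycline in normoxia, of ACSM5, LRP1 and EPAS1 with doxycycline in hypoxia, of ACOT13 for hypoxia with doxycycline, and of ACSM5 and PPARA for hypoxia with vehicle. The other 13 were lost without at least 1 array. Of those 12, 8 held under every alternative, while ACSM5 and EPAS1 with doxycycline in hypoxia were lost under the methods' t-test, ACSM5 also with only those groups in the model. All 9 list calls for hypoxia with vehicle, ACSM5 and PPARA included, were lost under both settings. In normoxia the median doxycycline difference was -0.01 over the lipoprotein list, -0.04 over the acyl-CoA binding and thioesterase list and 0.03 over the nuclear receptor list, against -0.02 over all genes. Among the genes on these lists that were not analysed here were ACSL3, LIPC, NR1H2, NR1H4 and HNF4A. Of the 16 genes on the lipoprotein list, 13 were measured.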

How the data were processed

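From each culture of A498 cells 250 ng of total RNA was labelled with biotin and hybridised to human arrays by the study. The authors deposited 1 table of log2 values of 70523 probe sets on 16 arrays, normalized with RMA. The submitters' processing notes name RMA and Transcriptome Analysis Console. Versions of these tools and a genome build were not given in the sources used here. Values ran from 1.71 to 19.85, and 590 probe sets were above 16, the log2 limit of a 16-bit scan, on all arrays, so a further step after RMA may have changed fold sizes. The number of arrays, 4 per group, limits the precision.

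Gene names came from the annotation of the array type that the methods name for the study's tumours: 23781 probe sets had 1 symbol, 1543 several and 45199 none, and only the first were used. Symbols were updated through RefSeq genes (GRCh38.p14; gene identifiers matched 21497 probe sets, and symbols or synonyms a further 2280). The brightest probe set was used for the 528 genes with more than 1, which left 22411 genes. A limma model (version 3.58.1, R 4.3.3) of 4 group means with an intensity trend was fitted to all 16 arrays. Tests were two-sided, and p-values were adjusted over all genes by the Benjamini-Hochberg method. The fit was tested on simulated data. Exact permutation tests used the 70 arrangements of 4 against 4 arrays. The study's methods name no model for single genes on these arrays, and their t-test was run as an alternative. Further alternatives used replicate numbers as blocks, array weights, a moderation without the trend, dim genes left out (no group mean above the median level of all genes), probe sets averaged per gene, arrays centred on their medians, a second quantile normalization, a model of the compared groups alone, 2 pairs of arrays left out and each array left out in turn.

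The members, the gene lists and the rule for named genes were chosen with earlier results of these data known. The rule named all 10 members, DGAT1 and DGAT2, from each list up to 4 genes per comparison with the smallest adjusted p past the threshold or the nearest where none passed, and for the 3 members with the smallest adjusted p the 2 genes most correlated over the arrays. Not every gene so named is printed. The FABP5 pseudogenes were added after the data had been seen. Promoter windows came from RefSeq (GRCh38.p14).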

Additional observations from a re-analysis of the deposited data

Results flagged for a closer look

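ACSL5 measured 6.73 on replicate 3 of vehicle hypoxia, apart from the other 3 arrays of that group, which lay between 6.52 and 6.55. Of the 40 groups of 4 arrays examined, this was the 1 with an array set so far from the rest, and chance marks about 1 group in 20.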

How the results depend on the processing

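The counts of called members depended on the setting in 5 of the 6 comparisons, and the interaction stayed at 0. With dim genes left out, 7 of the 10 members and 11507 of the 22411 genes remained. For doxycycline against vehicle in hypoxia the count of 0 became 1 (FABP5) with dim genes left out and with array weights. Over all genes kept, these settings called 1247 and 5089. The count lay between 0 and 1 when 1 array was left out. For hypoxia against normoxia with doxycycline the count of 1 became 2 with dim genes left out, without the intensity trend (both adding FABP5) and without replicate 4 of vehicle and of doxycycline hypoxia (adding ACSL4), and 3 with array weights. In that order, these settings called 1173, 1034, 2287 and 3366 of all genes kept. For hypoxia against normoxia with vehicle the count of 2 became 0 with only the arrays compared and under the methods' t-test, and 3 with dim genes left out and with array weights (both adding ACSL4). In that order, these settings called 120, 11, 1950 and 4610 of all genes kept. The count lay between 2 and 3 when 1 array was left out. For doxycycline hypoxia against vehicle normoxia the count of 3 became 1 (ACSL1) under the methods' t-test, and lay between 1 and 4 when 1 array was left out. Leaving out 1 array gave 3258 to 6101 calls over all genes in this comparison. For doxycycline against vehicle in normoxia it was 3, lay between 2 and 4 under the other settings and between 3 and 4 when 1 array was left out. Over single members 1545 results kept their side of the threshold, 21 passed it, 16 lost it and 0 reversed. The causes were not tested.

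Replicate numbers did not pair the arrays: deviations of same-numbered arrays correlated between -0.83 and 0.54, and 8 of 24 pairs were above 0.1. With the number as a replicate block the members called stayed at 3, 0, 1 and 2 in the single-factor comparisons, and ACSL4 in doxycycline hypoxia against vehicle normoxia missed the threshold (1.56, limma adjusted p = 0.0504). Over all genes the block moved the calls for hypoxia to 479 with doxycycline, against 893 without it, and to 853 with vehicle, against 1549 without it. For doxycycline against vehicle the block gave 1453 calls in normoxia and 718 in hypoxia.

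Counts over all genes moved further. Doxycycline against vehicle in normoxia called 2035 genes (1220 to 2885 with 1 array left out, 4777 with array weights, 3161 without both replicate 4 arrays of hypoxia). In hypoxia it called 1045 (586 to 1659 with 1 array left out, 5089 with array weights, 285 with only the arrays compared, 198 under the methods' t-test). Hypoxia with doxycycline called 893 (426 to 1395 with 1 array left out, 3366 with array weights), and hypoxia with vehicle called 1549 (790 to 1863 with 1 array left out, 4610 with array weights, 120 with only the arrays compared, 11 under the methods' t-test). The combination called 4772 (8458 with array weights).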

Other observations

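Over the 16 arrays, and as a description only since all points share the 4 groups, the genes most like ACSL1 were RAB31, a small GTPase of vesicle traffic (Pearson r = 0.97), and DSTYK (0.967). RAB31 averaged 11.84 with doxycycline in hypoxia, 11.62 with doxycycline in normoxia, 11.52 with vehicle in hypoxia and 11.01 with vehicle in normoxia. The genes most like ACSL5 were WDR37 (0.963) and SLC43A2, an amino acid transporter (0.962), which averaged 5.94 with doxycycline in hypoxia, 6.64 with doxycycline in normoxia, 5.79 with vehicle in hypoxia and 6.31 with vehicle in normoxia. The genes most like FABP5 were its pseudogenes FABP5P1 (0.966) and FABP5P7 (0.955). With doxycycline in hypoxia against vehicle in normoxia, ANGPTL4, a secreted inhibitor of lipoprotein lipase, averaged 7.90 and 6.17 (log2 difference 1.73 ± 0.41 SE, limma adjusted p = 0.00775). It was 1 of 4 called among the 13 measured genes of the lipoprotein list, with LRP1, VLDLR and LRP8, all higher. Of all genes 21.3% were called there, 7.67% higher. ANGPTL4 was not called in any single-factor comparison.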
